A study of Mus musculus with 16 samples.

Results

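The superoxide dismutases and the enzymes that clear peroxide were followed in iWAT, inguinal white fat, which lies under the skin of the groin. They are 10 genes taken by name from the 54752 gene IDs of the count table: Sod1, Sod2, Sod3, Ccs, Cat, Gpx1, Gpx3, Gpx4, Nqo1 and Hmox1. RNA was sequenced from 16 libraries of mice labelled as females aged 90 days on a C57BL/6 background, 4 libraries of each genotype. WT mice carried neither mutation, and Lepob/+ mice carried 1 copy of ob, an allele of the leptin gene Lep that makes no working hormone. SOD1G93A mice, a model of amyotrophic lateral sclerosis, carried many copies of a mutant human SOD1 transgene beside their own Sod1, and SOD1G93A-Lepob/+ mice carried both. The study asked what lowering leptin does to female mice with the transgene. The genotypes were compared for the effect of the ob allele alone, of the transgene alone and of the ob allele in transgenic fat. All 10 genes had enough counts to be tested in every comparison, and none passed the threshold of edgeR's quasi-likelihood test in any of them.

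Superoxide dismutases turn superoxide, a by-product of respiration and of oxidases, into hydrogen peroxide. SOD1 does so mainly in the cytosol with copper that the chaperone CCS delivers, SOD2 in the mitochondrial matrix with manganese, and SOD3 outside the cell. Catalase in peroxisomes and the selenium-containing glutathione peroxidases then remove peroxide. NQO1, a quinone reductase, and HMOX1, which breaks down heme, are well-known targets of NRF2, the transcription factor that answers oxidative stress.

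The transgene is human, so Sod1 here is the mouse gene, and the ob allele is a point mutation of Lep, so counts of these genes are no test of the genotype labels. Whether reads of the transgene were counted for mouse Sod1 was not tested. Total counts were 36.8 to 61.9 M per library (M for mega). The 12 markers of mature adipocytes were found in every genotype, with summed levels of 17100 to 39500 CPM (counts scaled to the library's TMM-adjusted total, per M). The 14 markers of lymph node, a tissue that lies within this fat pad, summed to 1160 to 2810 CPM in 6 libraries and to 13.3 to 63.7 CPM in the other 10. The 6 were 2 of 4 WT, 1 of 4 Lepob/+ and 3 of 4 SOD1G93A libraries and 0 of 4 SOD1G93A-Lepob/+ libraries, where Glycam1, a gene of high endothelial venules, was at 0 counts. Lepob/+ replicate 4 held 193000 CPM of 12 skeletal muscle markers and WT replicate 3 held 4970 CPM, against 22.8 to 328 CPM elsewhere. The library labelled SOD1G93A-Lepob/+ replicate 3 had 0 counts of Xist and 599 of the Y chromosome gene Ddx3y, while the other 15 had at least 11895 of Xist and 0 of Ddx3y. In such bulk tissue, fewer cells of a type and less RNA per cell cannot be told apart.

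RefSeq promoter windows of GRCm38.p6, from 250 bases before to 50 bases after a gene's start, were found for 7 of the 10 genes, and Sod3, Ccs and Hmox1 had none in the table used. The windows were searched on both strands for the core of the antioxidant response element that NRF2 binds, TGACNNNGC, for the GC box GGGCGG, for CCAAT and for the TATA box TATAAA. These letters stand in 12.4%, 35.7%, 37.4% and 13.6% of the 32851 windows searched. Windows of a chromosome that carries none of the 10 genes were left out. The Sod1 window is shown since the mouse gene is the counterpart of the transgene, the Gpx1 window since Gpx1 varied most between libraries, and the Nqo1 window since Nqo1 had the smallest p-values of the 10. Each is printed on the strand of its gene, and capitals mark the matches.
Sod1 (chr16:90220512-90220811, plus strand): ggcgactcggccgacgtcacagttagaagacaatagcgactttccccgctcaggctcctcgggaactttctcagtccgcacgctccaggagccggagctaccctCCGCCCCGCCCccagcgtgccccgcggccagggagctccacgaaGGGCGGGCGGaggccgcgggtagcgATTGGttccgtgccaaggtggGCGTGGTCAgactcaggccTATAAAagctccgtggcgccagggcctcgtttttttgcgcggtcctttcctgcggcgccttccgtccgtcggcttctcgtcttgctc
Gpx1 (chr9:108338830-108339129, plus strand): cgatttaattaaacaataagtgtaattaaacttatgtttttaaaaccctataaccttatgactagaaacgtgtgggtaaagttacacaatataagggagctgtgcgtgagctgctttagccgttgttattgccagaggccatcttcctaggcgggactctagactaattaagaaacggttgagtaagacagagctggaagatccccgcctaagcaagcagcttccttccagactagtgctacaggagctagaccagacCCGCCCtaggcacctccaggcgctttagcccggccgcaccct
Nqo1 (chr8:107403156-107403455, minus strand): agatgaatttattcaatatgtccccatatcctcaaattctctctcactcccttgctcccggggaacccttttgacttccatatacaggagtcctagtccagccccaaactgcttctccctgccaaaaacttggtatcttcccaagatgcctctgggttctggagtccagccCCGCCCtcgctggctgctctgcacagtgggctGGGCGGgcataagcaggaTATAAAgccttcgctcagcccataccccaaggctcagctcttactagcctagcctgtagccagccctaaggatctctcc
The Sod1 window held 1 match to the antioxidant response element, GCGTGGTCA on its minus strand, whose first letter lies 56 bases before the start. It also held 4 GC boxes in overlapping pairs, 1 CCAAT on the minus strand and a TATA box 37 bases before the start. The Nqo1 window held 2 GC boxes and a TATA box 29 bases before the start, and the Gpx1 window held a GC box as its only match. Of the 10 windows of the 7 genes (Gpx4 has 4 starts), only that of Sod1 held the response element letters. This says nothing of sites outside these windows.

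Per kilobase of merged exon, Gpx3, Cat and Gpx4 had the highest means and Nqo1 the lowest. Over the 16 libraries Gpx3, the glutathione peroxidase that cells secrete, had a mean of 338 ± 197 CPM per kilobase (SD), Cat had 324 ± 84.2 and Gpx4 had 290 ± 68.3. Gpx3 lay above Cat in 5 of 16 libraries, so the order of these neighbours does not hold beyond their spread, while Cat lay above Gpx4 and Gpx4 above Gpx1 in 12 of 16 each. Gpx1 followed at 149 ± 128, Sod1 at 95.1 ± 15.2 and Sod3 at 93.2 ± 38.6. Gpx1 was above Sod1 in 6 libraries and Sod1 above Sod3 in 8, so these neighbours are not separated either. Hmox1 at 40.5 ± 14.2, Ccs at 17.6 ± 1.61, Sod2 at 12 ± 4.36 and Nqo1 at 4.43 ± 3.03 CPM per kilobase completed the order. Each of these 4 lay below the gene before it in 15 or 16 of the 16 libraries. The low place of Sod2, the mitochondrial enzyme, rests on its merged exon length, the longest of the 10. Sod1 and Sod3 also had long merged exons, 3.97 and 3.74 kilobases, against 1.44 for Gpx1. Before division by length Sod1 had a mean of 378 CPM and Gpx1 of 214 CPM, so the order of their means rests on length too.

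**Figure D1:**
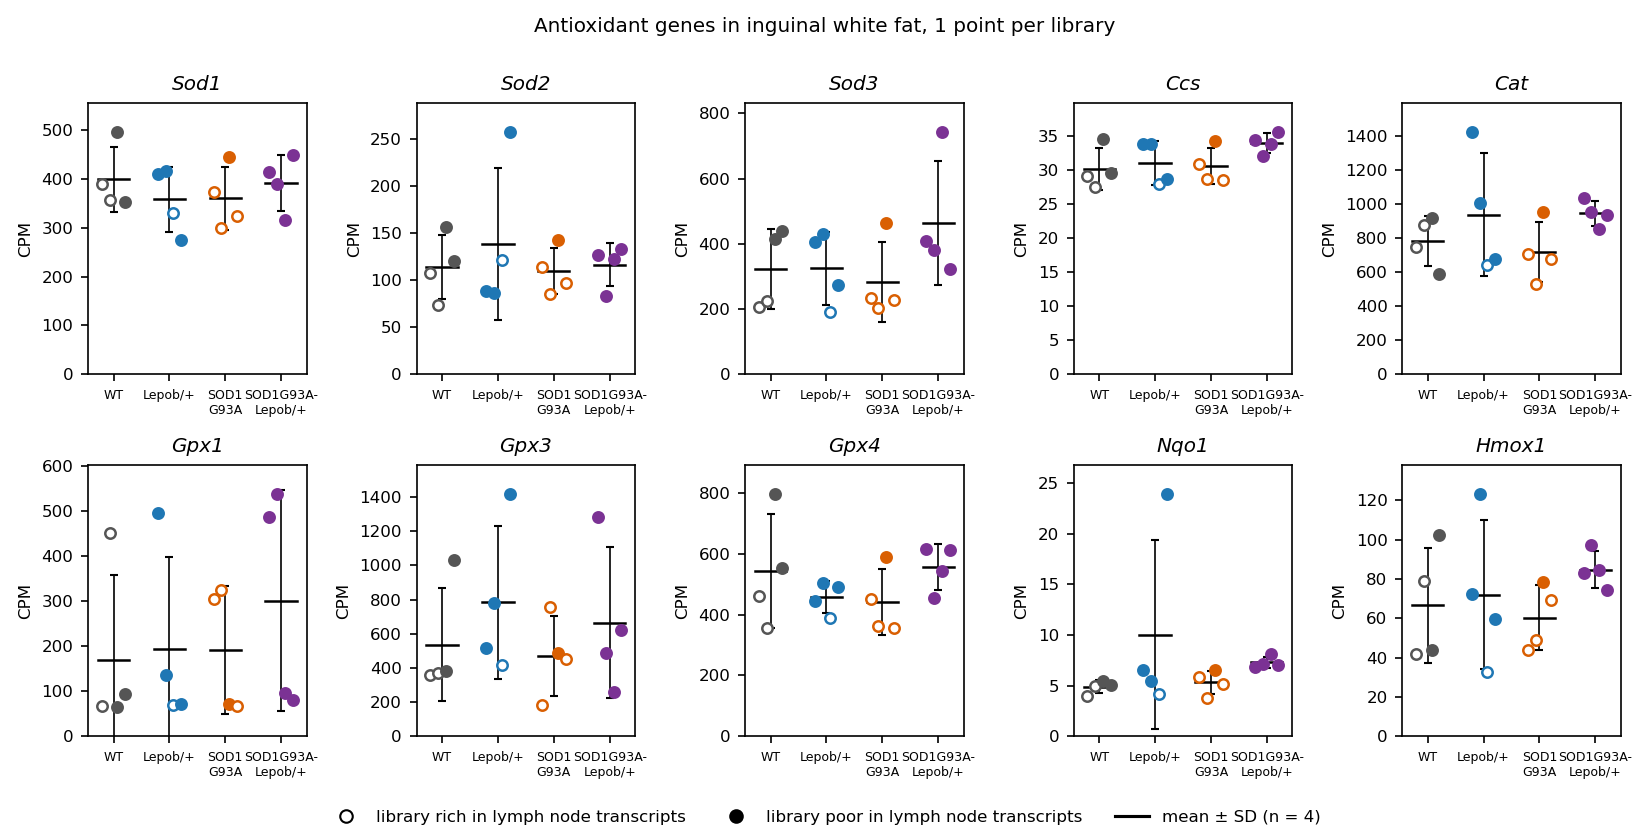
Level of each of the 10 genes in CPM (vertical axes, from 0) by genotype, with 1 point for each library, open where the library was rich in lymph node transcripts. Black lines give the mean ± SD of 4 libraries, and SD bars that reach below 0 stop at the axis. Gpx1 lies at 304.7 to 537.8 CPM in 6 libraries and at 65.26 to 135.5 CPM in the other 10, and Nqo1 in Lepob/+ replicate 4 stands at 23.92 CPM.

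Mouse Sod1 (ENSMUSG00000022982, chr16:90220754-90226329 of GRCm38, plus strand) was at similar levels in the 4 genotypes. It was at 389.9, 356.9, 496.7 and 353.7 CPM in WT replicates 1 to 4, at 410.5, 416.5, 329.5 and 276.0 CPM in Lepob/+, at 372.8, 298.7, 446.2 and 324.2 CPM in SOD1G93A and at 414.6, 390.3, 315.2 and 448.7 CPM in SOD1G93A-Lepob/+. The genotypes overlapped throughout. Between the 8 transgenic and the 8 other libraries Sod1 differed by a log2 fold change of -0.01 (95% interval -0.28 to 0.27, unadjusted p = 0.948 and adjusted p = 1.0 by edgeR). As a fold that interval runs from 0.821 to 1.2. It holds for the reads counted for Sod1, and whether these include reads of the transgene was not tested, so it does not bound the mouse transcript alone. Sod1 shares sequence with the pseudogene Gm8566 (97.85% over 465 bases), which held 1.88 to 2.88% of their summed counts.

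Ccs, whose product hands copper to SOD1, was the steadiest of the 10 genes. Ccs (ENSMUSG00000034108, chr19:4825366-4839332, minus strand) had a range of 27.44 to 34.57 CPM among WT libraries, of 27.94 to 33.89 CPM among Lepob/+, of 28.51 to 34.33 CPM among SOD1G93A and of 32.04 to 35.6 CPM among SOD1G93A-Lepob/+ libraries. Its SD over all 16 libraries was 9.14% of its mean, against 16% for Sod1, and the 2 genes had a Pearson r of 0.73 over the 16 libraries, which share the scaling by library. With the transgene Ccs differed by 0.07 (95% interval -0.09 to 0.23) on the log2 scale.

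Sod2 (ENSMUSG00000006818, chr17:13006846-13040063, plus strand) had its highest level in the library rich in muscle transcripts. It was at 257.6 CPM in Lepob/+ replicate 4 and next highest, 156.0 CPM, in WT replicate 3, the other library with muscle transcripts, and it ran from 73.6 to 142.5 CPM in the other 14. Muscle is rich in mitochondria. Lepob/+ against WT gave a log2 fold change of 0.28 (SE 0.33) for Sod2, -0.23 without Lepob/+ replicate 4 and 0.06 with muscle markers as a covariate.

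Sod3 (ENSMUSG00000072941, chr5:52363791-52371418, plus strand), the extracellular enzyme, spread over 2.13 to 2.31-fold within each genotype. It was at 207.0, 225.5, 416.0 and 440.7 CPM in WT replicates 1 to 4, at 405.9, 429.4, 192.1 and 273.3 CPM in Lepob/+, at 232.4, 201.7, 464.9 and 228.5 CPM in SOD1G93A and at 410.1, 381.7, 743.4 and 321.7 CPM in SOD1G93A-Lepob/+. The low values were those of the libraries rich in lymph node transcripts. Sod3 ran from 192.1 to 232.4 CPM in those 6 libraries and from 273.3 to 743.4 CPM in the other 10, with no overlap, and it was the only 1 of the 10 genes without overlap between these sets. Of all 19736 genes tested, 15.4% did not overlap between the same sets, so 1 of 10 is no more than the background. The sets were drawn from lymph node markers and are not groups of the study.

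**Figure D2:**
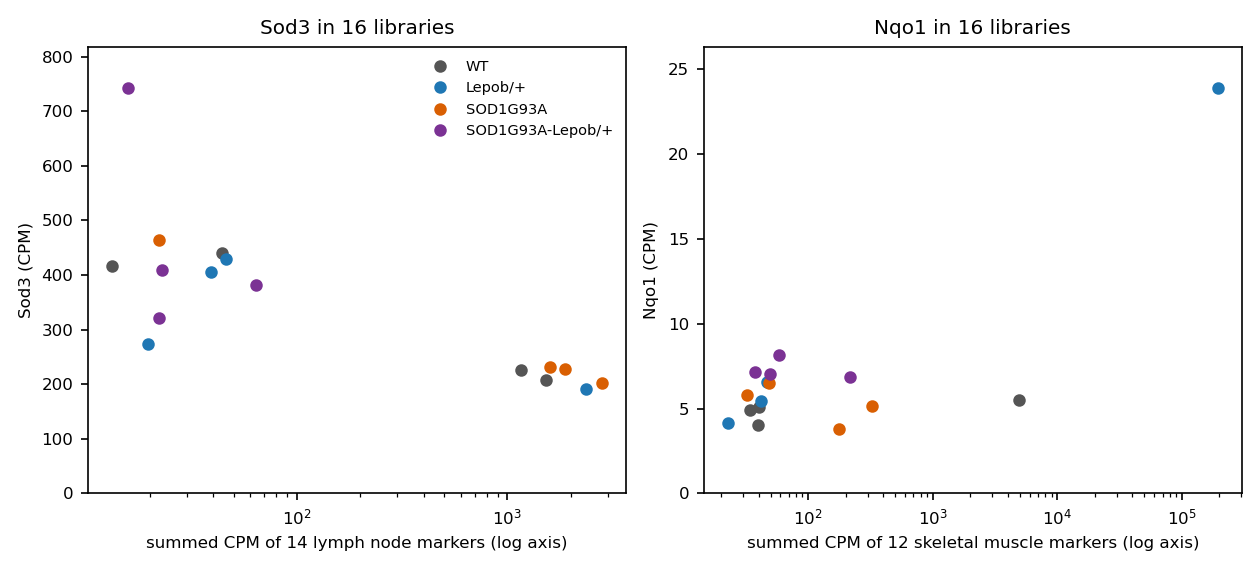
Left, Sod3 in CPM against the summed CPM of 14 lymph node markers in 16 libraries. Right, Nqo1 in CPM against the summed CPM of 12 skeletal muscle markers. The horizontal axes are logarithmic and colours give the genotype. Sod3 is at 192.1 to 232.4 CPM in the 6 libraries with 1160 CPM or more of lymph node markers, and Nqo1 is highest, 23.92 CPM, in the library with 193000 CPM of muscle markers.

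Catalase (Cat, ENSMUSG00000027187, chr2:103453849-103485160, minus strand) was at 748.8, 875.7, 920.4 and 588.3 CPM in WT replicates 1 to 4, at 1425, 1004, 642.8 and 679.4 CPM in Lepob/+, at 706.5, 530.7, 955.4 and 679.7 CPM in SOD1G93A and at 1035, 953.1, 854.5 and 938.4 CPM in SOD1G93A-Lepob/+. The SOD1G93A-Lepob/+ libraries were closest to each other, with an SD of 7.82% of their mean against 19.0% to 38.7% in the other genotypes, and 1 of them exceeded every SOD1G93A library. Between the 8 libraries with the ob allele and the 8 without, Cat differed by 0.33 on the log2 scale (95% interval -0.05 to 0.71, unadjusted p = 0.0863 and adjusted p = 0.521 by edgeR). Of the 8 with the allele 3 exceeded every library without it.

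Gpx1 (ENSMUSG00000063856, chr9:108338903-108340343, plus strand), the cytosolic and mitochondrial glutathione peroxidase, fell into high and low libraries within every genotype. It was at 67.69, 452.0, 65.26 and 93.89 CPM in WT replicates 1 to 4, at 496.2, 135.5, 69.84 and 72.34 CPM in Lepob/+, at 304.7, 325.5, 72.14 and 66.75 CPM in SOD1G93A and at 486.6, 537.8, 96.78 and 81.57 CPM in SOD1G93A-Lepob/+. The 6 high libraries were thus 1 WT, 1 Lepob/+, 2 SOD1G93A and 2 SOD1G93A-Lepob/+. All 6 are numbered 1 or 2 in the labels, as are WT replicate 1 and Lepob/+ replicate 2 among the low ones, and the 8 libraries numbered 3 or 4 were low. What the numbers stand for is not given in the sources used here. Of the 6, 3 were rich in lymph node transcripts, as were 3 of the 10 low ones. The step between the highest low and the lowest high library was 1.17 on the log2 scale, and 6.39% of the genes tested had a larger step with at least 4 libraries on each side. Its neighbours in the genome did not show such a range: Rhoa ran from 293.6 to 464.2 CPM and Usp4 from 79.65 to 125.8 CPM. Selenop, a selenium carrier whose transcript like that of Gpx1 needs selenium for its translation, ran from 955.4 to 2224 CPM. No other annotated transcript matched Gpx1 over at least 400 bases at 85% identity, and no annotated exon of another gene overlaps it. With this spread the comparisons say little of Gpx1: Lepob/+ against WT had an interval of 0.304 to 4.27-fold.

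Gpx3 (ENSMUSG00000018339, chr11:54902453-54910377, plus strand), the secreted enzyme, also varied within genotypes, but over other libraries. It was at 357.0, 373.4, 384.3 and 1031 CPM in WT replicates 1 to 4, at 517.3, 779.3, 417.8 and 1418 CPM in Lepob/+, at 182.5, 758.2, 488.5 and 452.4 CPM in SOD1G93A and at 1286, 485.5, 258.7 and 623.3 CPM in SOD1G93A-Lepob/+. Its highest and lowest libraries differed 7.77-fold, and every genotype held both high and low values. Gpx1 and Gpx3 thus had the widest ranges of the 10 genes over the 16 libraries, 8.24-fold and 7.77-fold.

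Gpx4 (ENSMUSG00000075706, chr10:80047166-80056439, plus strand), which reduces lipid peroxides in membranes, had a range of 2.23-fold over all libraries, from 357.1 CPM in WT replicate 2 to 796.9 CPM in WT replicate 3. Its mean was 543 ± 188 CPM over the WT libraries, 458 ± 51.8 over the Lepob/+, 441 ± 109 over the SOD1G93A and 556 ± 76.6 over the SOD1G93A-Lepob/+ ones (SD, n = 4). The processed pseudogene Gpx4-ps2 matches it at 99.74% over 762 bases and held 23.5 to 25.4% of their summed counts, so the level of Gpx4 is uncertain by that share. Summed with the pseudogene, the means were 725 ± 252, 606 ± 73.4, 585 ± 144 and 739 ± 98.8 CPM in the same order.

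Nqo1 (ENSMUSG00000003849, chr8:107388225-107403206, minus strand) was the least expressed of the 10, with 169 to 720 counts per library. It was at 4.022, 4.937, 5.499 and 5.101 CPM in WT replicates 1 to 4, at 6.554, 5.473, 4.151 and 23.92 CPM in Lepob/+, at 5.817, 3.815, 6.524 and 5.144 CPM in SOD1G93A and at 6.838, 7.168, 8.137 and 7.048 CPM in SOD1G93A-Lepob/+. All 4 SOD1G93A-Lepob/+ libraries lay above every SOD1G93A library, and 7.18% of all genes likewise had no overlap between these genotypes. The value of 23.92 CPM was that of Lepob/+ replicate 4, the library rich in muscle transcripts. None of the other 9 genes was free of overlap between the genotypes of any pair compared below.

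Hmox1 (ENSMUSG00000005413, chr8:75093621-75100589, plus strand), the other NRF2 target, had a pattern of its own, with a Pearson r of 0.22 to Nqo1 over the 16 libraries. It was at 41.85, 78.86, 43.84 and 102.2 CPM in WT replicates 1 to 4, at 72.21, 123.3, 32.9 and 59.74 CPM in Lepob/+, at 43.94, 48.94, 78.72 and 69.41 CPM in SOD1G93A and at 83.1, 97.4, 84.45 and 74.46 CPM in SOD1G93A-Lepob/+. In SOD1G93A-Lepob/+ 3 of 4 libraries exceeded every SOD1G93A library, and in WT and Lepob/+ the values spread over 2.44 and 3.75-fold.

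**Figure D3:**
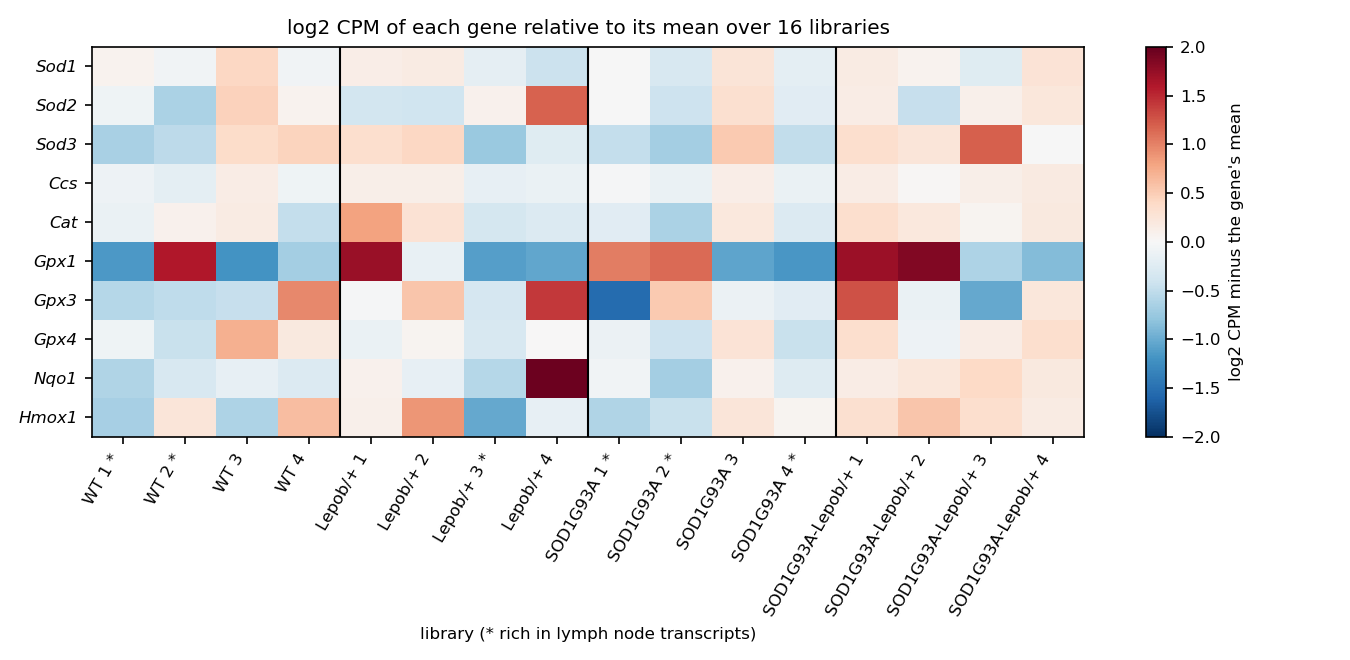
Log2 CPM of each gene minus its mean over the 16 libraries (colour scale, red above and blue below), with genes in rows, libraries in columns and lines between genotypes. Asterisks mark libraries rich in lymph node transcripts. Gpx1 shows 6 high libraries spread over the 4 genotypes, Nqo1 and Sod2 are highest in Lepob/+ replicate 4, and Ccs is even.

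In fat with the ob allele alone, Nqo1 stood out among the 10 genes, through 1 library. Lepob/+ exceeded WT by 1.04 on the log2 scale for Nqo1 (SE 0.43, 95% interval 0.12 to 1.95, unadjusted p = 0.0298 and adjusted p = 1.0 by edgeR), with 2 of 4 libraries above every WT library. Without Lepob/+ replicate 4 the difference was 0.12, and the two-sided exact permutation test of 4 against 4 gave p = 0.257. Of the other 9 genes 7 had a higher mean and 2, Sod1 and Gpx4, a lower mean, with log2 fold changes from -0.25 for Gpx4 to 0.55 for Gpx3. The median of the 10 was 0.15, against 0.03 for all genes tested. In this comparison 0 of the 10 passed the adjusted threshold, as did 0.0% of all genes by edgeR, and 1 of 10 had an unadjusted p under 0.05 against 4.37% of all genes. DESeq2 on all libraries also called 0 of the 10.

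None of the 10 genes passed the test with the transgene alone. The log2 fold changes of SOD1G93A over WT lay between -0.30 for Gpx4 (95% interval -0.79 to 0.19) and 0.18 for Gpx1, with 3 genes higher and 7 lower. Their median was -0.14, and that of all genes 0.02. For Sod1 the value was -0.15 (95% interval -0.54 to 0.24), for Sod2 -0.06, for Sod3 -0.19 and for Cat -0.13. By edgeR 0 of 10 passed the adjusted threshold (0.0% of all genes) and 0 had an unadjusted p under 0.05 (2.56% of all genes), and DESeq2 called 0 on all libraries or on those of these genotypes. At 4 libraries a genotype this does not show equal levels: the narrowest interval, that of Ccs, was 0.866 to 1.19-fold, and that of Gpx1 was 0.302 to 4.25-fold. In the same comparison red blood cell markers were lower in 5 of 5, all at an unadjusted p under 0.05, by a median of -1.06, 13 of 14 lymph node markers had a higher mean (median 1.05) and 11 of 12 mature adipocyte markers a lower one (median -0.20), and no marker passed the adjusted threshold.

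Adding the ob allele to the transgene gave the same sign for all 10 genes, without a call. Every log2 fold change of SOD1G93A-Lepob/+ over SOD1G93A was above 0, from 0.08 for Sod2 to 0.72 for Sod3, with a median of 0.43 against 0.00 for all genes tested. Sod3 had the smallest unadjusted p, 0.0736 (SE 0.37, 95% interval -0.08 to 1.52, adjusted p = 0.341 by edgeR), at 464 ± 190 against 282 ± 123 CPM (SD, n = 4 each). Cat differed by 0.40 (SE 0.25), Hmox1 by 0.49 (SE 0.36), Gpx4 by 0.34 (SE 0.23) and Ccs by 0.15 (SE 0.11). Nqo1, at 7.30 ± 0.576 against 5.32 ± 1.15 CPM, differed by 0.45 (SE 0.42, adjusted p = 0.596 by edgeR). Nqo1 was the 1 gene of the 10 whose libraries did not overlap, with p = 0.0286 in the two-sided exact permutation test, the smallest that 4 against 4 allow, and 7.18% of all genes did not overlap either.

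By edgeR 0 of 10 passed the adjusted threshold in this comparison, as did 0.0% of all genes, and 0 of 10 had an unadjusted p under 0.05 against 16.5% of all genes. DESeq2 also called 0 of the 10, on all libraries (3.09% of all genes) or on those of the compared genotypes (8.9% of all genes). The voom method of limma, with weights for the quality of each library, called 4 of them at an adjusted p under 0.05: Sod3 (log2 fold change 0.84, adjusted p = 0.0173), Cat (0.54, adjusted p = 0.0195), Gpx4 (0.51, adjusted p = 0.0274) and Ccs (0.20, adjusted p = 0.0382). That method called 31.5% of all genes, so 4 of 10 is near its background.

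Lymph node transcripts and markers of several other cell types moved with this comparison. All 14 lymph node markers had a lower mean in SOD1G93A-Lepob/+, by a median of -6.01 on the log2 scale, and 11 of 12 mature adipocyte markers a higher mean, by a median of 0.43, the same as for the 10 antioxidant genes. Red blood cell markers were higher in 5 of 5 by a median of 1.08, all at an unadjusted p under 0.05, and mean levels were also higher for 8 of 8 progenitor (median 0.58), 11 of 12 macrophage (0.53), 6 of 8 mammary epithelium (0.70), 8 of 8 endothelium (0.35) and 6 of 8 smooth muscle markers (0.34). Skeletal muscle markers were lower in 11 of 12 and brown adipocyte markers in 7 of 8, by medians of -1.01 and -0.39. No marker passed the adjusted threshold by edgeR, and the part of cell types other than lymph node, muscle and adipocytes in the values of the 10 genes was not tested. With lymph node markers as a covariate Sod3 differed by 0.04 (SE 0.26), Gpx4 by -0.05, Hmox1 by 0.03, Nqo1 by -0.08, Ccs by 0.00 and Cat by 0.16, while Gpx1 differed by 1.62 (SE 1.2). With adipocyte markers as a covariate Sod3 differed by 0.29, Cat by 0.02, Gpx4 by 0.00, Hmox1 by 0.35 and Nqo1 by 0.44. In the 10 libraries poor in lymph node transcripts, Sod3 was at 465 CPM in the 1 of SOD1G93A and had a mean of 464 CPM in the 4 of SOD1G93A-Lepob/+, so with 3 of 4 SOD1G93A libraries rich in lymph node the genotype and the lymph node content cannot be told apart. For Sod3 the library labelled SOD1G93A-Lepob/+ replicate 3, at 743.4 CPM, raised the difference: it was 0.40 without that library and 1.08 without SOD1G93A replicate 3.

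**Figure D4:**
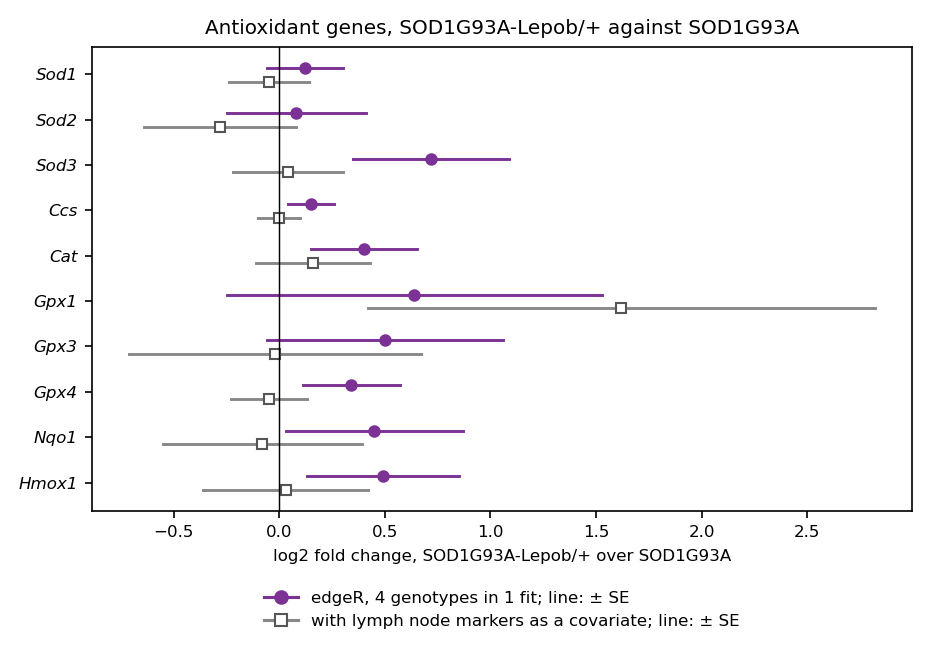
Log2 fold change of SOD1G93A-Lepob/+ over SOD1G93A (horizontal axis) for the 10 genes, with lines of ± SE. Filled circles are from edgeR with the 4 genotypes in 1 fit and open squares from the same fit with lymph node markers as a covariate. All 10 circles are above 0, and the squares lie between -0.28 for Sod2 and 0.16 for Cat, apart from Gpx1 at 1.62.

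Against Lepob/+, which shares its libraries with comparisons above, SOD1G93A-Lepob/+ showed the effect of the transgene on the ob background. Here 7 genes were higher and 3, Sod2, Gpx3 and Nqo1, lower, and the median was 0.13 (all genes -0.06). The values ran from -0.46 for Nqo1 (SE 0.42) to 0.64 for Gpx1 (SE 0.89), and Sod3 had the smallest unadjusted p, 0.189 (log2 fold change 0.51, adjusted p = 0.724 by edgeR). All 14 lymph node markers and all 12 muscle markers had a lower mean here, by medians of -4.54 and -9.67, with 12 and 11 of them at an unadjusted p under 0.05, and 10 of 12 mature adipocyte markers a higher one (median 0.41). Sod3 differed by 0.28 with lymph node, 0.49 with muscle and 0.17 with adipocyte markers as a covariate, and by 0.19 without SOD1G93A-Lepob/+ replicate 3. The sign for Nqo1 turned with Lepob/+ replicate 4, without which it was 0.44. By edgeR 0 of 10 passed (0.0% of all genes) and 0 had an unadjusted p under 0.05 (8.24% of all genes), and DESeq2 called 0.

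Over both backgrounds, 8 libraries against 8, the transgene gave log2 fold changes from -0.22 for Gpx3 to 0.41 for Gpx1, with a median of -0.01, equal to that of all genes. By edgeR 0 of 10 passed (0.0% of all genes) and 0 had an unadjusted p under 0.05 (3.2% of all genes), and DESeq2 called 0. All 12 muscle markers had a lower mean with the transgene here (median -6.36), 9 of them at an unadjusted p under 0.05. The 14 lymph node markers were all lower too (median -1.89), and 8 of 12 mature adipocyte markers were higher (median 0.07). The ob allele gave 9 genes higher and 1, Sod1, lower, with a median of 0.32 (all genes 0.03). Nqo1 had the largest value, 0.74 (SE 0.30, 95% interval 0.10 to 1.39, unadjusted p = 0.0268 and adjusted p = 0.512 by edgeR), and 6 of 8 libraries with the allele exceeded every library without it. The two-sided exact permutation test gave p = 0.0219 for Nqo1. Without Lepob/+ replicate 4 the difference for Nqo1 was 0.29. It was 0.34 (SE 0.35) with lymph node markers and 0.52 (SE 0.22) with muscle markers as a covariate.

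For the ob allele 0 of 10 passed by edgeR (0.0% of all genes), 1 of 10, Nqo1, had an unadjusted p under 0.05 (9.64% of all genes), and DESeq2 called 0. Voom with quality weights called 3, Cat, Sod3 and Ccs (adjusted p = 0.0232, 0.0329 and 0.0337), among 20.5% of all genes. Of the 8 libraries without the allele 5 were rich in lymph node transcripts and of the 8 with it 1, and with that covariate the 3 genes differed by 0.15, -0.07 and 0.00.

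Whether the ob allele acts otherwise with the transgene than without was tested as an interaction. It was largest for Sod3, at 0.71 on the log2 scale (95% interval -0.42 to 1.83), and had the smallest unadjusted p for Gpx4, 0.0968, at 0.58 (adjusted p = 0.564 by edgeR). With lymph node or adipocyte markers as a covariate, Sod3 gave 0.22 and 0.19 and Gpx4 0.28 and 0.11. Leaving out 1 library gave 0.38 (without SOD1G93A-Lepob/+ replicate 3) to 1.08 (without SOD1G93A replicate 3) for Sod3, and 0.34 (without WT replicate 3) to 0.78 (without SOD1G93A replicate 3) for Gpx4. The median was 0.21 (all genes -0.09), with 7 values above 0. Again 0 of 10 passed by edgeR (0.0% of all genes), 0 had an unadjusted p under 0.05 (7.98% of all genes), and DESeq2 called 0.

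Other genes of the same pathways were described from 6 lists of 114 genes, of which 113 had enough counts. In SOD1G93A-Lepob/+ against SOD1G93A 79 had a higher and 34 a lower mean, and 0 passed by edgeR. An unadjusted p under 0.05 was found for 17 of the higher and 6 of the lower ones. Among all 19736 genes 16.5% reached it in either direction, which is 3261 genes, and 827 of these were higher. DESeq2 called 3 of the 113 on all libraries (3.09% of all genes) and 15 on those of these genotypes (8.9% of all genes), and voom with quality weights 56 (31.5% of all genes). In Lepob/+ against WT 69 were higher with 0 at an unadjusted p under 0.05, and 44 lower with 1. In SOD1G93A against WT 38 were higher with 0, and 75 lower with 2. In both 0 passed by edgeR, DESeq2 or voom. In the interaction 0 passed by edgeR or voom, and DESeq2 on all libraries called 1 (46 of 19269 among all genes).

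Glutathione synthesis, recycling and transferase genes had 19 of 25 higher in SOD1G93A-Lepob/+ than in SOD1G93A, with a median of 0.29. An unadjusted p under 0.05 was found for 7 of the higher and 2 of the 6 lower ones. In this comparison 16.5% of all genes reached that level in either direction, and 827 of 19736 reached it as higher. That background holds for the lists that follow too. Gsr, which restores reduced glutathione for the peroxidases, was at 79.3 ± 27.8 against 51.2 ± 5.34 CPM (log2 fold change 0.63, SE 0.20), Gss, the last step of glutathione synthesis, at 22.9 ± 4.4 against 16.3 ± 1.02, and the transferase Gsta3 at 68.7 ± 21.7 against 30.6 ± 9.04 (SD, n = 4 each). Their adjusted p by edgeR was 0.261 each. All 4 SOD1G93A-Lepob/+ values of Gss (18.33 to 28.24 CPM) lay above those of SOD1G93A (15.12 to 17.2 CPM), as 7.18% of all genes had no overlap in this comparison.

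Peroxiredoxins and thioredoxins, which also reduce peroxide, had 17 of 18 genes higher in that comparison, with a median of 0.21 and 1 at an unadjusted p under 0.05. That gene was Prdx6, a peroxiredoxin that acts on lipid peroxides, at 258 ± 14 against 186 ± 60.6 CPM (log2 fold change 0.47, SE 0.20). NRF2 regulators and other targets had 17 of 23 higher, with a median of 0.14 and 5 at that level. Among them Osgin1, an NRF2-responsive growth inhibitor, was at 8.82 ± 0.667 against 3.92 ± 2.42 CPM. Osgin1 had a mean of 7.69 ± 0.974 CPM over the WT and of 3.5 ± 1.86 CPM over the Lepob/+ libraries, which gave it the interaction with the smallest unadjusted p of these lists, 0.00105 (2.31, SE 0.56, adjusted p = 0.564 by edgeR). Aldh3a2, a fatty aldehyde dehydrogenase, was at 88.7 ± 5.09 against 69.9 ± 4.78 CPM, and Slc48a1, a heme transporter, at 236 ± 25.7 against 167 ± 46.5 CPM. Osgin1 and Aldh3a2 did not overlap between SOD1G93A-Lepob/+ and SOD1G93A, as 7.18% of all genes did not.

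Genes of copper delivery to SOD1 and of other copper enzymes had 9 of 14 higher in SOD1G93A-Lepob/+ than in SOD1G93A, with a median of 0.14. An unadjusted p under 0.05 was found for 2 of the higher and 1 of the lower ones. Slc31a1, the main copper importer, was at 54.1 ± 6.13 against 41.7 ± 7.29 CPM, Steap4, a metalloreductase of fat, at 460 ± 118 against 253 ± 83.8, and Sco2, which brings copper to cytochrome oxidase, at 4.42 ± 0.770 against 7.0 ± 1.74. Sco2 was lower without overlap (3.313 to 5.068 against 5.72 to 9.549 CPM). A list of selenoproteins other than the glutathione peroxidases, and of genes for selenoprotein synthesis and supply, had 8 of 17 higher and a median of -0.02. Of these Selenom was at 39.3 ± 6.93 against 26.3 ± 2.64 CPM, without overlap, and Lrp8 at 0.908 ± 0.244 against 5.87 ± 3.96 CPM. Enzymes that make superoxide or peroxide had 9 of 16 higher, with a median of 0.27. Rac2 and Ncf4, parts of the phagocyte oxidase complex of white blood cells, were at 39.9 ± 9.14 against 245 ± 161 CPM and 11.7 ± 1.65 against 33.1 ± 18.6 CPM. Among the SOD1G93A libraries, of which 3 of 4 were rich in lymph node transcripts, Rac2 ran from 31.19 to 420.4 CPM and Ncf4 from 7.266 to 49.91 CPM. Maoa was at 42.5 ± 5.15 against 29.2 ± 8.76 CPM. The adjusted p of these genes by edgeR lay above 0.05.

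Across the 16 libraries, the genes most like each enzyme were found by the Pearson r of log2 CPM among all genes tested, as a description over libraries that share lymph node and muscle content. Nearest to Sod1 were Fam213a (r = 0.979), a peroxiredoxin-like gene, Derl1 (0.946) and Eci3 (0.944). Nearest to Sod2 were Timm17a (0.975), a mitochondrial import subunit, Lrrc39 (0.968) and Immt (0.965), and nearest to Sod3 were Dcxr (0.970), Rtn4rl1 (0.967) and Ggh (0.964). Ccs was most like Chmp5 (0.928), Actn4 (0.914) and Rtn3 (0.908), and Cat most like Gm16439 (0.929), Gm6532 (0.917) and Fmo5 (0.911).

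Gpx4 was most like its pseudogene Gpx4-ps2 (r = 0.993), then Cox19 (0.945) and Mien1 (0.940). Nqo1 was most like Tulp4 (0.967), Dtna (0.967) and Rab12 (0.965), and Hmox1 most like P2ry6 (0.964), Kcnk13 (0.960) and Pla1a (0.957). No gene followed Gpx1 or Gpx3 as closely: the highest r was 0.831 for Gpx1 (Fam69c, then Scarna13 at 0.827 and Cacng4 at 0.816) and 0.804 for Gpx3 (Bace1, then Mob2 at 0.775 and Il10 at 0.743). Among the 10 themselves the highest r was 0.77, between Ccs and Gpx4, and the lowest -0.58, between Sod2 and Gpx1.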

How the data were processed

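RNA of 16 iWAT libraries was measured by RNA sequencing. The authors trimmed reads with fastp, aligned them to mm10 (GRCm38) with HISAT2 2.1.0 and assigned reads with a single alignment to genes with featureCounts 2.0.2. The deposited values are raw counts, and the strand setting, the annotation release and the unit counted (reads or pairs) are not given in the sources used here. The paper names a TruSeq Stranded kit and the labels a NEBNext Ultra kit. Of the 54752 gene IDs, 54723 were paired with a symbol.

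The 10 genes and all lists were chosen with earlier results of these data known. Counts were tested with edgeR 4.0.16 in R 4.3.3. The filter was filterByExpr with a minimum count of 10 and a minimum total of 15, which left 19736 genes. TMM scaling, 1 fit of 4 genotypes, robust quasi-likelihood F tests and Benjamini-Hochberg adjustment over all genes at 0.05 followed, with a prior count of 1 for log2 CPM. Differences are log2 fold changes with 95% intervals. Permutation tests used log2 CPM.

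Named genes were the 10, up to 3 genes of each list with the smallest unadjusted p under 0.05 in the comparison described, and the 3 genes most correlated with each of the 10. Rhoa, Usp4 and Selenop were added after the values of Gpx1 were seen. Copies were sought with blastn among GENCODE M21 transcripts, at 85% identity over 400 bases. Depth was 36.8 to 61.9 M counts per library. By the study's methods, n counts animals, so each library was taken as 1 mouse. Alternatives were DESeq2 1.42.0 and its size factors, voom of limma 3.58.1 with quality weights, other filters, plain totals, a replicate block, a covariate for lymph node, muscle or adipocyte markers, and leaving out each library or both libraries that stood apart. The fits were tested on simulated data.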

Additional observations from a re-analysis of the deposited data

Results flagged for a closer look

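In 5 of the 40 sets of 4 libraries (10 genes in 4 genotypes), 1 library lay farther from its nearest neighbour than Dixon's critical value of 0.829 of the range allows. For independent, normally distributed values chance alone gives about 1 in 20 such sets. The 40 sets share the same libraries, and the share of all genes that meet this rule was not computed. The count therefore cannot tell whether these genes differ from others. Sod3 in SOD1G93A replicate 3 was at 464.9 CPM against 201.7 to 232.4 CPM in the other 3, which were the libraries of that genotype rich in lymph node transcripts. Gpx1 in WT replicate 2 was at 452.0 CPM against 65.26 to 93.89 CPM, and Gpx1 in Lepob/+ replicate 1 at 496.2 CPM against 69.84 to 135.5 CPM. Gpx3 in WT replicate 4 was at 1031 CPM against 357.0 to 384.3 CPM. Nqo1 in Lepob/+ replicate 4 was at 23.92 CPM against 4.151 to 6.554 CPM, and that library held 193000 CPM of skeletal muscle markers.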

How the results depend on the processing

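Counts of the 10 genes called moved under some settings. For Lepob/+ against WT, 1 gene (Nqo1) had an unadjusted p under 0.05, and 0 had with the replicate block, with lymph node or muscle markers as a covariate, without both Lepob/+ replicate 4 and SOD1G93A-Lepob/+ replicate 3, and with edgeR or DESeq2 on the compared genotypes only. By voom the gene at that level was Cat (log2 fold change 0.49, unadjusted p = 0.0334), while Nqo1 differed by 0.40 (unadjusted p = 0.112). Leaving out 1 library gave 0 to 1, and 0 without WT replicate 1, 2 or 4 or Lepob/+ replicate 4. Of all 19736 genes, 862 reached that level in the main fit, 414 with the block and 1224 by voom. It was 972 with the lymph node and 362 with the muscle covariate, and 341 of 20078 without Lepob/+ replicate 4. For SOD1G93A-Lepob/+ against SOD1G93A, voom gave 4 genes past the adjusted threshold and 7 at an unadjusted p under 0.05, where edgeR on the compared genotypes gave 2 and DESeq2 on them 4. Among all genes, voom gave 6212 of 19736 past the adjusted threshold and 8722 at an unadjusted p under 0.05. On the compared genotypes 3942 of 18506 genes reached that unadjusted level by edgeR and 4558 of 17380 by DESeq2. Leaving out 1 library gave 0 to 3, with 3 without SOD1G93A replicate 3 and 1 without Lepob/+ replicate 4 or SOD1G93A-Lepob/+ replicate 4. Among all genes, 5635 of 20103 had an unadjusted p under 0.05 without SOD1G93A replicate 3. It was 3732 of 20078 without Lepob/+ replicate 4 and 2550 of 20147 without SOD1G93A-Lepob/+ replicate 4. For the ob allele over both backgrounds, voom gave 3 and 5, and the lymph node covariate and the fit without both libraries gave 0. Among all genes, voom gave 4048 and 7655 of 19736. The unadjusted level was reached by 666 with the lymph node covariate and by 1115 of 20010 without both libraries. Leaving out 1 library gave 0 to 3, with 0 without Lepob/+ replicate 4 or SOD1G93A replicate 2, 2 without Lepob/+ replicate 3 and 3 without SOD1G93A replicate 3. In the same order all genes gave 1406 of 20078, 955 of 20011, 4425 of 20086 and 3643 of 20103. For SOD1G93A-Lepob/+ against Lepob/+ leaving out 1 library gave 0 to 1 (1 without Lepob/+ replicate 4), and for the interaction 0 to 2 (1 without WT replicate 2 and 2 without SOD1G93A replicate 3). For these fits all genes gave 1234 of 20078, 1591 of 20126 and 3258 of 20103, in the same order. The cause was not tested.

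Of 1900 values of single genes under 28 settings, 1820 stayed on their side of the threshold and within an SE of the value reported, 73 moved further, 7 passed the threshold (with voom) and 156 changed sign. Of the 70 values reported, 21 kept their sign in every setting. Residuals of same-numbered libraries correlated over 0.1 in 5 of 24 pairs and below -0.1 in 8. Libraries of different numbers were not compared in this way, so these values cannot tell whether the numbers pair the libraries. With the replicate block, Nqo1 in Lepob/+ against WT differed by 0.83 (unadjusted p = 0.0746 and adjusted p = 1.0 by edgeR). The block lowered the SE of Gpx1, whose 6 high libraries are all numbered 1 or 2, from 0.89 to 0.53 in Lepob/+ against WT (difference 0.19 without and 0.08 with it), and called 0 of the 10 genes. Depth bears most on Nqo1, which had the fewest counts, 169 to 720 per library.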
